A study of Mus musculus with 4 samples.

Results

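The Obox family of mouse homeobox genes was followed across 4 RNA libraries of late 2-cell embryos in which Uqcc3, an assembly factor of mitochondrial complex III, had or had not been targeted by siRNA. The 7 members were taken by gene symbol from 47445 gene identifiers. They comprised 4 maternal genes (Obox1, Obox2, Obox5 and Obox7) and 3 zygotic genes (Obox3, Obox4-ps35 and Obox6). All 7 passed the filter on low values, as did 12390 genes in all. The control group and the siRNA group held 2 libraries each, all of C57BL/6N embryos; the females were 8 weeks old. The siRNA group is labelled siRNA-treated (Uqcc3-depleted). It received Uqcc3 siRNA, 5 µM, at 8 hpi. The protocol gives a negative-control siRNA of equal dose and timing for the controls, although their treatment label reads "none". Collection was limited to injected embryos that looked morphologically normal. The sources used here do not give the number of embryos per library, and no label says that libraries of a group came from separate matings or injection days.

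Obox genes encode DNA-binding proteins with a homeodomain, and the family is known from oocytes and cleavage embryos. Their maternal transcripts are stored in the growing oocyte and are cleared after fertilization, while zygotic members are transcribed from the embryo's own genome when it is activated at the 2-cell stage. In mice, Obox proteins act redundantly in genome activation, and embryos that lack several of them arrest early in cleavage. The division into maternal and zygotic members is prior knowledge. It could not be checked here, since libraries of oocytes or of other stages were not analysed here.

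The promoters of the members are shown first, and they hold stretches that some members share. Any link of these stretches to the values below was not tested. RefSeq promoters were matched by symbol for 5 of the 7 members. The 250 bases before each RefSeq start are printed 5′ to 3′ on the gene's strand in build GRCm38.p6. The Obox1 window lies wholly inside the gene span given below, and the others lie partly inside theirs. They are therefore upstream of the RefSeq start, but not wholly upstream of the annotated gene start. The windows are chr7:15750120-15750369 for Obox5, chr7:15547007-15547256 for Obox1, chr7:14659458-14659707 for Obox7, chr7:15388601-15388850 for Obox2 (all on the plus strand) and chr7:15639778-15640027 on the minus strand for Obox3. Capitals mark, in this order, a 37-base stretch common to the 4 maternal windows, a 25-base stretch common to Obox1, Obox5, Obox7 and Obox3, and the letters TATATAA of a TATA box.
Obox5: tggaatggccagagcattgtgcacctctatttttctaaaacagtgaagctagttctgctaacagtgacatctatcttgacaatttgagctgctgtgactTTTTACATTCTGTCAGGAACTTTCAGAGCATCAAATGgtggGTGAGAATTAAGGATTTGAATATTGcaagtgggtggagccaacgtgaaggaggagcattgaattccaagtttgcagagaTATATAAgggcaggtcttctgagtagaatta
Obox1: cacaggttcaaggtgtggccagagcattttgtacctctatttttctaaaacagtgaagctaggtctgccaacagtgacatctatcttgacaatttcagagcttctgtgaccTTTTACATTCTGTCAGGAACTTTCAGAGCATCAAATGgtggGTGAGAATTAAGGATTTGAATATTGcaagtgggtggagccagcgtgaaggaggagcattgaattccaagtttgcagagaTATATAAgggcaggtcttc
Obox7: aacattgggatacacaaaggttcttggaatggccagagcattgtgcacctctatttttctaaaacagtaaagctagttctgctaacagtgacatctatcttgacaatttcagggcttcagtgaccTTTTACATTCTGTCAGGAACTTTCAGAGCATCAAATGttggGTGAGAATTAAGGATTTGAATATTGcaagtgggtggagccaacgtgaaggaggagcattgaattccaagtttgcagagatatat
Obox2: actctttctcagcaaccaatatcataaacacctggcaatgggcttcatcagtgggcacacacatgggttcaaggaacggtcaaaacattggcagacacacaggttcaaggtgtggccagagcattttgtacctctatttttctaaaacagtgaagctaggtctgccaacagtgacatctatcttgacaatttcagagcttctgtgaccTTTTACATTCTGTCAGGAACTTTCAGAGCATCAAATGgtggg
Obox3: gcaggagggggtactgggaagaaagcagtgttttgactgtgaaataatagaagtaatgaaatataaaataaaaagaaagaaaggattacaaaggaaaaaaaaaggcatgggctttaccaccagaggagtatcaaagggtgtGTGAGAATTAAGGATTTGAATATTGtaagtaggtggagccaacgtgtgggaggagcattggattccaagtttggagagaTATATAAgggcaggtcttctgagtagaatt

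The 37-base and 25-base stretches were picked as the longest ones common to the members named for them. Their presence in those windows was thus fixed in advance. The 37-base stretch was found in 4 of 32851 RefSeq promoter windows, those of the 4 maternal members, and Obox3 lacked it. The 25-base stretch was likewise found in 4 of them, those of Obox1, Obox5, Obox7 and the zygotic member Obox3. Obox6 and Obox4-ps35 had no window to search. In local alignments Obox5 matched Obox1 over 235 columns at 96.2% identity and Obox7 over 226 columns at 96.5%. Obox5 matched Obox3 over 125 columns at 92.8%, and that match covered only bases -125 to -1 of the Obox3 window. Obox2 matched Obox1 over 153 columns with no mismatch. Obox1, Obox5 and Obox7 were therefore alike over most of the window, and Obox3 was like them next to the start. TATATAA, on either strand, was in the windows of Obox1, Obox3 and Obox5 and in 3.04% of all windows. The Obox7 window is cut off inside the place where Obox1 and Obox5 hold it, and the Obox2 window ends before that place. Neither can thus be said to lack it. GGATTA, a core recognised by several homeodomains, was searched on both strands as GGATTA or TAATCC. Obox3 held it once, at base -168, and the 4 maternal windows did not, against 6.25% of all windows. The Obox2 window lies further upstream than the others relative to these stretches, so it ends before the 25-base stretch. A match of letters is a description and not a binding site.

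The family lies on chromosome 7 between bases 14659496 and 15839678 in mm10, the build named in the submitters' processing notes. Obox7 (ENSMUSG00000055942.13) spans 14659496 to 14665996. Obox2 (ENSMUSG00000074369.12) spans 15388721 to 15398545, and Obox1 (ENSMUSG00000054310.16), at 15388948 to 15556866, contains most of it on the same strand. Obox3 (ENSMUSG00000066772.12), at 15479825 to 15639902 on the opposite strand, also overlaps the span of Obox1. Obox5 (ENSMUSG00000074366.9) spans 15750131 to 15759800, Obox4-ps35 (ENSMUSG00000092576.2) 15819879 to 15825705, and Obox6 (ENSMUSG00000041583.8) 15833241 to 15839678. GENCODE M21 lists 6 of the 7 as protein-coding and Obox4-ps35 as a lincRNA, with other ends than in the deposited tables. Near-identical sequence limits some values. Of all 100-base windows in annotated transcripts, 42.3% of those of Obox1 also occur in Obox2 and 47.2% of those of Obox2 in Obox1, so these 2 values are uncertain. The share was 8.89% for Obox3, mostly in the pseudogene Obox3-ps3, 2.34% for Obox7, 1.75% for Obox5, and 0 for Obox6 and Obox4-ps35, where the Obox4-ps35 value is for the GENCODE M21 model and not the version in the deposited tables. Obox1 and Obox2 share 59 exon bases, and Obox1 and Obox3 share 0.

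The deposited values are FPKM, fragments scaled to transcript length and to library size, so they can be compared between genes. The implied depth was 16700000 and 19000000 fragments in the controls, and 11700000 and 11900000 with siRNA. Uqcc3 had control values of 147 and 211 FPKM and siRNA values of 23.7 and 19.8 FPKM, so that its siRNA mean was 12.1% of its control mean. The log2 difference was -2.97 (SE 0.63, limma adjusted p = 0.745 over all genes). Library siRNA replicate 2 stands apart from the other 3. Its log2 values correlated with theirs at 0.624 to 0.651 across genes, against a highest correlation of 0.872 to 0.875 for each of the others. It had under 1 FPKM for 112 of the 2475 genes that reached 20 FPKM in each of the remaining 3. Rn18s-rs5, a ribosomal RNA gene, had 14506 FPKM there and 183 to 1023 FPKM in the others. The FPKM values of the members below are therefore given for each siRNA library. In limma 0 of 12390 genes (0%) passed an adjusted p of 0.05, and 738 had an unadjusted p under 0.05. An exact permutation test of 2 against 2 libraries cannot give a two-sided p below 0.333.

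In the controls the family was abundant, with 0.322% and 0.276% of summed FPKM. Obox5 was the highest member at 750 ± 169 FPKM (SD, n = 2), followed by Obox6 at 580 ± 28.7, Obox4-ps35 at 220.0 ± 41.0 and Obox1 at 205 ± 32.6 FPKM. Obox3 at 147 ± 40.8, Obox2 at 103 ± 11.9 and Obox7 at 54.6 ± 35.1 FPKM came next. Only the neighbours Obox4-ps35 and Obox1 overlapped between the 2 control libraries. Obox5 ranked 77 and 119 among the tested genes of control replicates 1 and 2, and Obox6 ranked 134 and 143. Obox7 varied most between the controls, 2.67-fold, and Obox6 least, 1.07-fold.

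**Figure D1:**
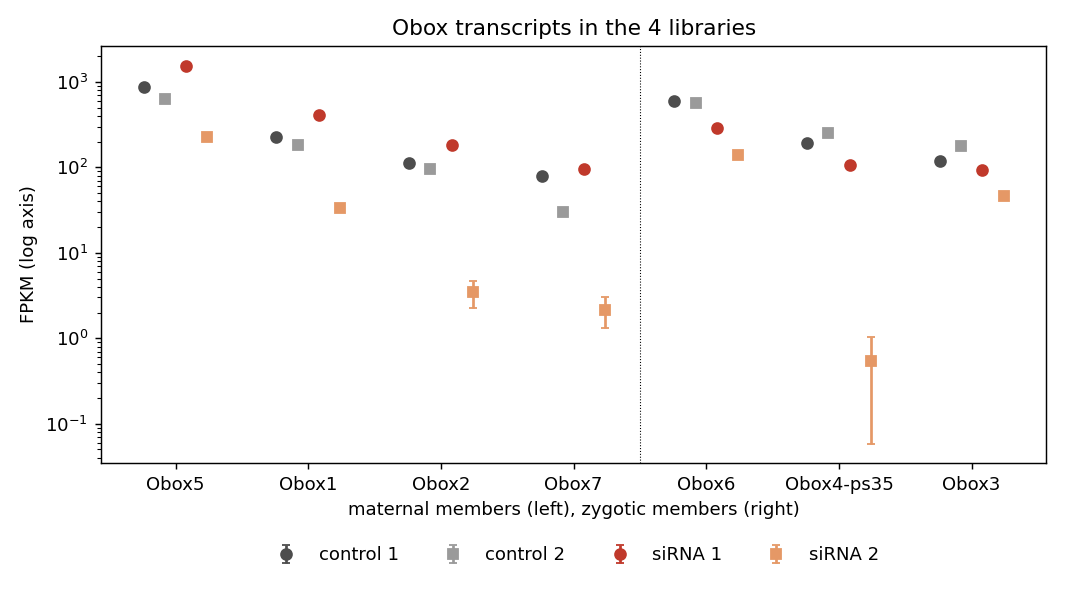
FPKM (log axis) of the 7 Obox members in the 4 libraries, 1 point per library, with the lower and upper bound that the authors' program gave; bounds narrower than a point are hidden. In the 4 maternal members siRNA 1 is the highest point and siRNA 2 the lowest, and in the 3 zygotic members both siRNA points lie under both controls in the values as deposited.

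Each zygotic member had its 2 siRNA values under its 2 control values, and none of the 3 passed the test. Obox6, a homeobox gene known to promote reprogramming of somatic cells to pluripotency, had 600.3 and 559.6 FPKM in the control pair, 285 FPKM in siRNA replicate 1 and 138 FPKM in siRNA replicate 2. Its controls lie close together, and both siRNA values are under them with a gap that exceeds the spread of the controls. The siRNA mean was 36.5% of the control mean, and the log2 difference was -1.54 (SE 0.62, limma unadjusted p = 0.0392, adjusted p = 0.745). Obox6 has 1 annotated transcript and no 100-base window in another gene, and 2112 to 13138 implied fragments stood behind its 4 values. This estimate undercounts genes with several transcripts, so it does not rank Obox6 against such members.

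Obox4-ps35, a copy of the Obox4 type, had control values of 191 and 249 FPKM and siRNA values of 106 and 0.546 FPKM. The first siRNA library held 48.3% of the control mean and the second 0.248%, where only 5 implied fragments were seen and the authors' bounds ran from 0.0577 to 1.03 FPKM. The log2 difference was -4.09 (SE 1.67, limma unadjusted p = 0.0413, adjusted p = 0.745). Its size rests on siRNA replicate 2, the library that stands apart, at -7.15; without that library the log2 difference was -1.03.

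Obox3, a zygotic homeobox gene with 8 annotated transcripts, had control values of 118 and 175 FPKM and siRNA values of 92.4 and 45.7 FPKM. The controls differed 1.49-fold, and the first siRNA library lay only a little under the lower of them. The log2 difference was -1.13 (SE 0.66, limma adjusted p = 0.745). The 8 Obox3 pseudogenes, some of which share sequence with it, summed to 620 and 997 FPKM in the controls and to 369 and 14.5 FPKM with siRNA. Obox3 itself made up 15.97% and 14.97% of this Obox3-type signal in the controls, against 20.01% for siRNA replicate 1 and 76.0% for siRNA replicate 2. No source used here says how the authors' program divided reads among these copies.

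All 3 zygotic members, against 30.0% of all tested genes, had both siRNA values under both controls, and 0 had both above, against 8.60%. Scaling matters for this count. Across all tested genes the median log2 difference was -0.39 as deposited, -0.085 in TPM, -0.055 by median-of-ratios and 0.012 by quantile scaling. For siRNA replicates 1 and 2 taken singly it was -0.304 and -0.573 as deposited, and -0.131 and -0.0249 in TPM. By median-of-ratios it was 0.0946 and -0.274, and by quantile scaling -0.00837 and -0.0143. The count was 3 in TPM and 2 under the other scalings, where Obox3 in siRNA replicate 1 no longer lay below both controls. Of the tested genes, 21.4%, 19.1% and 18.7% lay below both controls under these 3 scalings. Obox6 and Obox4-ps35 stayed below both controls under each of them.

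The maternal members showed another pattern, above both controls in siRNA replicate 1 and below both in siRNA replicate 2. Obox5, the most abundant maternal member, had 869.7 and 630.0 FPKM in the controls, 1514 FPKM for siRNA replicate 1 and 228 FPKM for siRNA replicate 2. The siRNA libraries thus lie on opposite sides of the controls. The share of FPKM from mitochondrial mRNA was placed the same way, at 9.98% and 11.8% in the controls, 17.9% for siRNA replicate 1 and 3.41% for siRNA replicate 2, and its part in the maternal values was not tested. The first held 2.02 times the control mean and the second 30.4% of it. Averaged over both, the log2 difference was -0.33 (SE 0.90, limma adjusted p = 0.942), with an SD of 909.6 FPKM around a mean of 871 FPKM with siRNA. Its sign depends on the scaling, with 0.10 in TPM, 0.095 by median-of-ratios and 0.044 by quantile scaling.

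Obox1, a maternal homeobox gene that shares much of its sequence with Obox2, had 228 and 182 FPKM in the controls, 413 FPKM for siRNA replicate 1 and 33.9 FPKM for siRNA replicate 2. Obox2 had 112 and 95.02 FPKM in the controls, then 182 and 3.45 FPKM with siRNA. Both therefore repeat the order seen for Obox5, with lower values relative to the controls in siRNA replicate 2. Obox1 exceeded Obox2 2.04-, 1.92- and 2.27-fold in control replicates 1 and 2 and siRNA replicate 1, and 9.82-fold in siRNA replicate 2, where 34 implied fragments stood behind Obox2. Their log2 differences were -0.77 (SE 1.07) and -1.87 (SE 1.498), with limma adjusted p = 0.872 and 0.787.

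Obox7, the maternal member at the other end of the cluster, had control values of 79.4 and 29.7 FPKM and siRNA values of 95.6 and 2.16 FPKM. The first siRNA library lay above the higher control by less than the controls differed from each other. The log2 difference was -1.51 (SE 1.47, limma adjusted p = 0.815).

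All 4 maternal members lay above both controls in siRNA replicate 1, against 20.6% of all tested genes, and all 4 lay below both in siRNA replicate 2, against 50.6%. Both held together in 4 of 4 maternal members and 0 of 3 zygotic members, against 8.49% of tested genes. In siRNA replicate 1 the 3 zygotic members lay below both controls, against 48.3% of tested genes. The maternal counts were 4 and 4 under each scaling, and the share of all genes with both was 9.80% in TPM, 14.9% by median-of-ratios and 11.5% by quantile scaling. In siRNA replicate 1 the maternal log2 differences were closely alike, 1.03 for Obox5, 1.02 for Obox1, 0.96 for Obox7 and 0.82 for Obox2, while the median of all genes was -0.30. In siRNA replicate 2 they spread from -1.69 for Obox5 through -2.56 for Obox1 and -3.98 for Obox7 to -4.55 for Obox2, while the median of all genes was -0.57. The less abundant a maternal member was in the controls, the more negative its difference in siRNA replicate 2, except that Obox7 and Obox2 came in reverse order. With siRNA replicate 2 alone against the controls 6 of the 7 members passed in limma (all but Obox3), but so did 1477 genes in all (11.9%). With siRNA replicate 1 alone 0 of 7 members and 0 genes passed, and 1008 genes had an unadjusted p under 0.05.

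**Figure D2:**
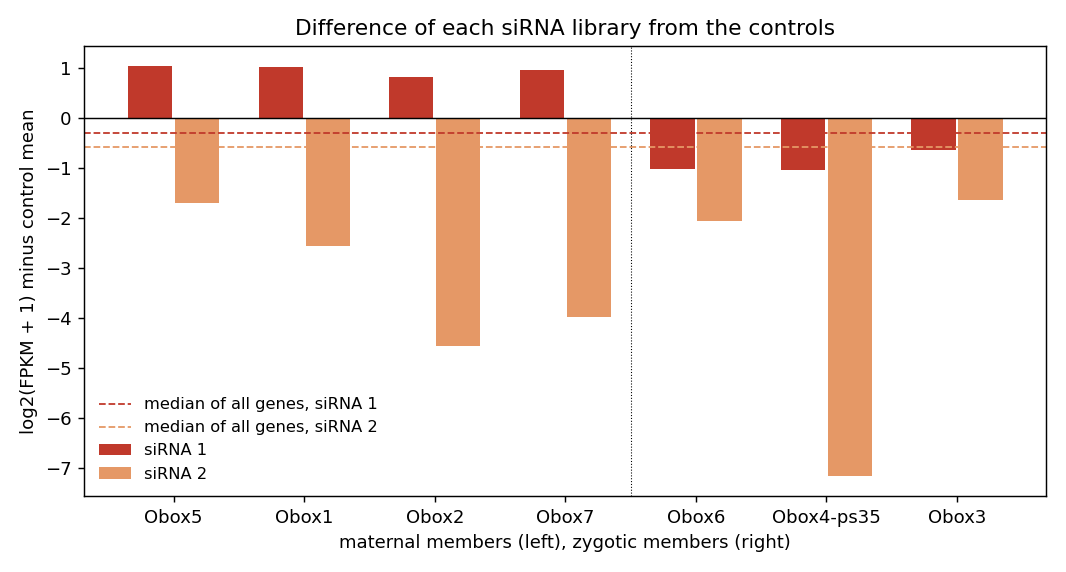
Difference of siRNA 1 and siRNA 2 from the mean of the 2 controls on the log2(FPKM + 1) scale (1 library per bar, so no error), with dashed lines at the median of all 12390 tested genes in each library. In siRNA 1 the 4 maternal members stand at 0.82 to 1.03 and the 3 zygotic members at -0.63 to -1.03; in siRNA 2 all 7 are negative.

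A ratio within a library does not depend on scaling by 1 factor per library, though it can under quantile scaling. Maternal members summed to 1289 and 937 FPKM in the controls, and to 2206 and 268 FPKM with siRNA. Zygotic members summed to 909 and 984 FPKM in the controls, and to 484 and 184 FPKM with siRNA. The maternal to zygotic ratio was 1.42 and 0.952 for the control pair, 4.56 for siRNA replicate 1 and 1.45 for siRNA replicate 2. Maternal transcripts thus made up 58.7% and 48.8% of the family in the controls, 82.0% for siRNA replicate 1 and 59.2% for siRNA replicate 2. Both siRNA ratios exceed both controls, but siRNA replicate 2 only just exceeds control replicate 1. The log2 ratio was 0.22 ± 0.41 in controls and 1.36 ± 1.17 with siRNA (SD, n = 2 each), a difference of 1.15 that is 1.97 for siRNA replicate 1 alone and 0.32 for siRNA replicate 2 alone. It was 0.80 without Obox5 and Obox6, the most abundant member of each class, and 0.31 with the median of members in place of the sum.

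Single pairs of a maternal and a zygotic member were also compared. The ratio lay above both controls in 12 of 12 pairs in siRNA replicate 1, and in 5 of 12 in siRNA replicate 2. The count in siRNA replicate 1 adds nothing new. It follows from every maternal member lying above both controls there and every zygotic member below both. These pairs share members and are not independent. In siRNA replicate 2 the 5 pairs were the 4 with Obox4-ps35, which was almost absent there, and Obox5 with Obox6. Obox5 exceeded Obox6 1.45- and 1.13-fold in the controls, 5.32-fold for siRNA replicate 1 and 1.65-fold for siRNA replicate 2. Obox1, by contrast, stood at 0.380 and 0.326 times Obox6 in the controls, 1.45 times for siRNA replicate 1 and 0.245 times for siRNA replicate 2.

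**Figure D3:**
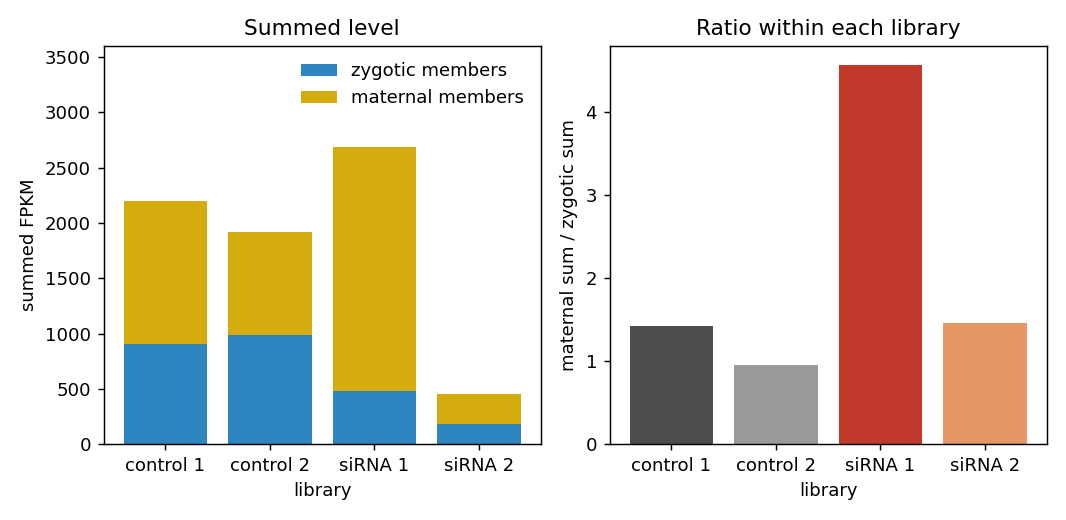
Left, summed FPKM of the 3 zygotic (blue) and 4 maternal (yellow) members in each library; right, the maternal sum divided by the zygotic sum in the same library. The ratio is 1.42 and 0.952 in the controls, 4.56 in siRNA 1 and 1.45 in siRNA 2.

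The make-up of each class varied by member. Obox5 held 67.5% and 67.2% of the maternal sum in the controls and 68.7% in siRNA replicate 1, and 85.2% in siRNA replicate 2. Obox6 held 66.0% and 56.9% of the zygotic sum in the controls, 58.9% for siRNA replicate 1 and 74.9% for siRNA replicate 2. Obox4-ps35 held 21.0%, 25.3% and 22.0% in the first 3 libraries and 0.297% in siRNA replicate 2. Obox3 held 13.0% and 17.8% of the zygotic sum in the controls, with 19.1% and 24.8% in the siRNA libraries. Obox1 held 17.7% and 19.5% of the maternal sum in the controls, with 18.7% and 12.7% in the siRNA libraries. Obox2 held 8.68% and 10.1% in the controls, with 8.26% and 1.29% in the siRNA libraries, and Obox7 held 6.16% and 3.17%, with 4.33% and 0.807%. In siRNA replicate 1 the shares of Obox1, Obox4-ps35, Obox6 and Obox7 lay between those of the controls, and those of Obox2, Obox3 and Obox5 lay outside them. In siRNA replicate 2 the most abundant member of each class took a larger share.

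Gene lists around the family gave the setting for these values, and 0 members of any list passed in limma. Of 28 tested genes transcribed at the 2-cell stage, 15 had both siRNA values under both controls and 1 had both above them, beside 30.0% and 8.60% of all tested genes. In siRNA replicate 1 alone 21 of 28 lay below both controls, beside 48.3% of all tested genes, with a median log2 difference of -0.58. Zscan4d, a 2-cell gene of a multicopy family that takes part in telomere maintenance, had control values of 130 and 298 FPKM and siRNA values of 108 and 6.71 FPKM. Tcstv3 had 168 and 192 FPKM against 120 and 153 FPKM, and Sp110, a nuclear body protein, had 172 and 142 FPKM against 84.4 and 121 FPKM.

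Transcripts stored in the oocyte were followed in a list of 39 tested genes without Obox. In siRNA replicate 1, 17 of 39 lay above both controls and 6 below, beside 20.6% and 48.3% of all tested genes, with a median of 0.20, beside 0.99 for the maternal Obox members. In siRNA replicate 2 the median was -0.28, beside -3.27 for the maternal Obox members, and 18 of 39 lay below both controls, near the 50.6% of all tested genes. Both together, as in the 4 maternal Obox genes, held for 7 of 39, beside 8.49% of all tested genes. Dppa3, a maternal factor that protects the embryo's methylation, had control values of 10131 and 12086 FPKM and siRNA values of 8371 and 3004 FPKM. Tcl1, a cofactor of Akt, had 4134 and 2798 FPKM against 3251 and 902 FPKM. Btg4, an adapter of the deadenylase that clears maternal mRNA, had 1456 and 1732 FPKM against 1978 and 518 FPKM, with siRNA replicate 1 above and siRNA replicate 2 below both controls.

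Regulators of genome activation had a median over 27 tested genes of -0.49 for siRNA replicate 1 and 0.41 for siRNA replicate 2. In 6 of them both siRNA values lay under both controls (30.0% of all tested genes) and in 5 above (8.60%), and 7 lay under both controls in siRNA replicate 2 (50.6%). The 3 most abundant regulators, Dppa3, Dppa4 and Gabpa, were among those under both controls in both siRNA libraries. Dppa4, a chromatin factor upstream of 2-cell genes, had control values of 299.9 and 203 FPKM and siRNA values of 80.6 and 181 FPKM. Gabpa, an ETS-family activator, had 252 and 211 FPKM against 133 and 79.6 FPKM. Other homeobox genes were mixed, with 7 of 26 tested below both controls, near the 30.0% of all tested genes, 5 above (8.60% of all tested genes), and medians of 0.14 and -0.70 in siRNA replicates 1 and 2. Crxos, a homeobox gene beside the Obox cluster, was the most abundant of them, at 1026 and 1658 FPKM in the controls and 652 and 929.6 FPKM with siRNA. Both its siRNA values lay under both controls, like those of the zygotic Obox members, with a log2 difference of -0.74 (SE 0.62, limma adjusted p = 0.795). Meis2 had 682 and 346 FPKM against 496 and 24.1 FPKM, and Hesx1 had 52.1 and 83.0 FPKM against 70.2 and 10.99 FPKM.

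**Figure D4:**
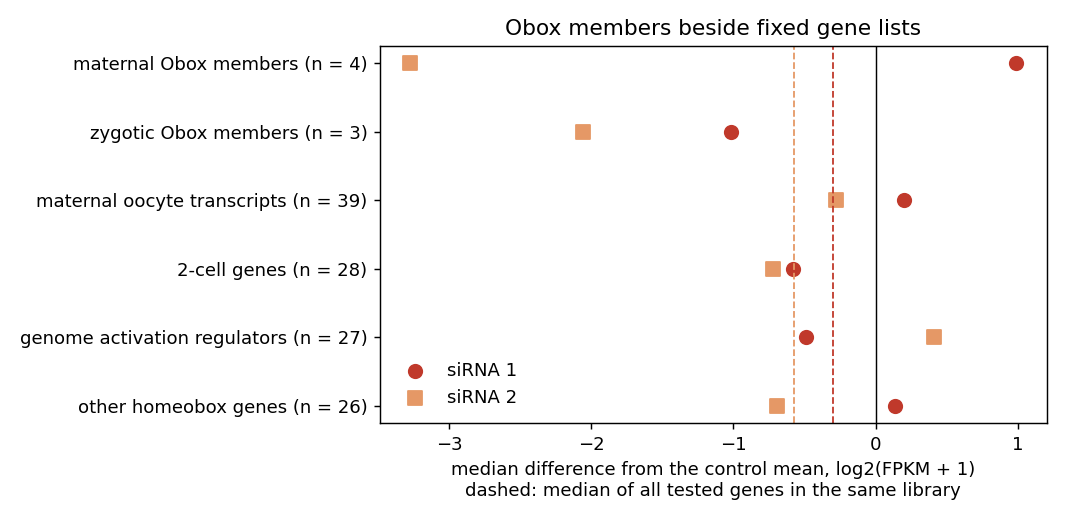
Median difference from the control mean, log2(FPKM + 1), of the Obox members and 4 gene lists in siRNA 1 (circles) and siRNA 2 (squares); n is the number of tested genes and dashed lines mark all tested genes. Maternal Obox members stand at 0.99 in siRNA 1 and -3.27 in siRNA 2, zygotic members at -1.02 and -2.06.

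Markers of the labelled stage were detected in every library, at the lowest sum in siRNA replicate 2. The 8 markers of late 2-cell embryos summed to 799.7 and 1104 FPKM in the controls and to 584 and 328 FPKM with siRNA, and Usp17le, named because of this, was listed at 0 in both siRNA libraries. All 8 are also among the 2-cell genes listed above, so their sums are not a separate observation. The 8 oocyte markers summed to 590.4 and 711 FPKM in the controls and to 735 and 781 FPKM with siRNA, with 0 at zero. These 8 also belong to the list of stored oocyte transcripts, which went the other way in siRNA replicate 2. Its 40 genes summed to 20930 and 21490 FPKM in the controls, and to 19790 and 7290 FPKM with siRNA. Summed levels of blood markers were 34.5 to 35.2 FPKM in controls and 9.52 to 36.0 FPKM with siRNA, and those of sperm markers 30.7 to 43.8 and 25.8 to 50.9 FPKM. Cumulus and granulosa markers summed to 8.62 to 21.3 and 8.43 to 13.7 FPKM, and blastocyst lineage markers to 4.46 to 11.8 and 7.01 to 13.6 FPKM. The part of the lower 2-cell marker sums in the values of the zygotic Obox members was not tested. In bulk libraries fewer embryos of a stage and less RNA per embryo cannot be told apart.

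Patterns most like those of the leading members were sought among 3492 genes with a mean of at least 20 FPKM, by the root mean square distance of centred log2 values over 4 libraries. For Obox5 the nearest were Gm13023 (distance 0.123), Gm22748, Gm44133, Ankrd49 and Mphosph6, the last at 4963 and 4511 FPKM in the controls and 9095 and 1815 FPKM with siRNA. For Obox6 the nearest were Gpx1 (distance 0.0342), a glutathione peroxidase, then Paip2, Cacybp and Dpm3. Gpx1 had control values of 237 and 223 FPKM and siRNA values of 112 and 57.1 FPKM. No other Obox gene was nearer than these genes in either case. Within the family the nearest pairs were Obox6 with Obox3 (distance 0.314) and Obox5 with Obox1 (0.374), each of 1 class. Other distances crossed the classes. Obox4-ps35 was nearest to the maternal Obox2 (1.16), with Obox6 at 2.21 and Obox3 at 2.34, and Obox5 was nearer to the zygotic Obox3 (0.816) and Obox6 (0.859) than to Obox7 (1.03) and Obox2 (1.21). With 4 libraries such likeness is a description only.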

How the data were processed

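The authors deposited 1 table per library of FPKM values with lower and upper bounds per gene, per the file headers. Build mm10 and the tools Cuffdiff 2.2.1, Cufflinks 2.2.1, SAMtools 1.7, STAR 2.7.3a and Trim Galore 0.6.5 come from the submitters' processing notes. The annotation release and the handling of reads that match several places are not given in the sources used here. Rows of 1 gene identifier were summed, and 2 genes marked as failed were left out. Genes with at least 1 FPKM in 2 of 4 libraries were tested on log2(FPKM + 1) values in R 4.3.3, using limma 3.58.1 and a trend of variance on abundance, two-sided, with Benjamini-Hochberg adjustment over all genes. This scale understates differences of low genes. The test was checked on simulated data in which all genes and libraries had the same spread. That check does not cover a library that stands apart, as siRNA replicate 2 does.

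Sample numbers follow accession order. Since nothing says that libraries of a group are separate biological samples, p-values reflect only variation among libraries, possibly technical. Titles of the groups end differently; if this marks a batch, batch and group cannot be told apart. Implied fragments, (2 × FPKM / (upper bound - FPKM)) squared, are an estimate that undercounts genes with several transcripts. Depth is the median of implied fragments over FPKM and length for genes with 1 transcript of at least 2000 bases. Fragments and bounds cover counting error only. Promoters were read from RefSeq, and aligned locally with Biopython 1.88 (match 1, mismatch -1, gap opening -3, gap extension -1). Sums, ratios and list medians have no test. Alternatives changed the offset to 0.1, the filter (none, leaving out genes at 0 in all libraries, or 5 FPKM), the scaling (TPM, median-of-ratios, quantile), the trend, the summing of rows and the libraries used.

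Members and lists were chosen with earlier results of these data known. The text names all members, Uqcc3, the 3 most abundant tested genes of each list other than the cell type markers, and the 5 genes nearest in pattern to the leading member of each class, of which 1 is not reported here. Rn18s-rs5, the Obox3 pseudogenes, Usp17le and Obox8 were named after their values were seen.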

Additional observations from a re-analysis of the deposited data

How the results depend on the processing

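Obox3, Obox4-ps35 and Obox6 kept a negative log2 difference under all 12 alternatives, from -1.63 to -0.63, -7.15 to -1.03 and -2.06 to -0.99. Obox1, Obox2 and Obox7 turned positive only without siRNA replicate 2 (1.02, 0.82 and 0.96; -2.56, -4.55 and -3.98 without siRNA replicate 1), and Obox5 did so there (1.03; -1.69 without siRNA replicate 1) and in TPM (0.10), by median-of-ratios (0.095) and by quantile scaling (0.044); their adjusted p values in limma were 0.613 or more in those fits. Leaving out 1 library at a time gave 0 to 1477 genes and 0 to 6 members called, both maxima without siRNA replicate 1, where siRNA replicate 2 is assumed to vary like the controls; the other alternatives called 0. The lowest adjusted p of a member over its alternatives was 0.0220, and the highest 0.9998. Leaving out 1 library moved the maternal total between -2.04 and 1.00 (log2), the zygotic total between -2.36 and -0.97 and the log2 ratio between 0.32 and 1.97. The maternal total reversed only without siRNA replicate 2 (1.00). Chosen after seeing the data, adding the Obox3 pseudogenes gave -2.08 for the zygotic total and 1.56 for the log2 ratio. The log2 ratio was 0.80 without the most abundant member of each class and 0.31 with the median of members. Counts of maternal members above and below both controls were 0 and 0 with both siRNA libraries, 4 and 0 without siRNA replicate 2 and 0 and 4 without siRNA replicate 1, while 3 zygotic members lay below in each case. These counts were also added after seeing the data. No paired analysis was possible because the labels carry no replicate numbers. Depth limits Obox4-ps35, Obox2 and Obox7 in siRNA replicate 2, with 5, 34 and 26 implied fragments.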

Other observations

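Obox8, an annotated protein-coding gene of the same cluster that was not among the members, had 178 FPKM and 166 FPKM in the controls, above the 109 FPKM and 95.1 FPKM measured with siRNA. It differed less between the siRNA libraries than any of the 7 members. Of 48 other Obox rows in the tables, 11 reached 1 FPKM in at least 2 libraries. The 38 other Obox4 pseudogenes stayed at or under 2.37 FPKM in each library, so the Obox4-type signal came from Obox4-ps35. Obox3-ps2 was the highest pseudogene, at 289.9 and 453 FPKM in the controls and 135 and 8.73 FPKM with siRNA. Obox3-ps5 had 145 and 262 FPKM against 106 and 2.64 FPKM. Obox3-ps6 had 86.8 and 149 FPKM against 51.0 FPKM and a listed 0. In each of these 3 both siRNA values were under both control values, and in siRNA replicate 2 each lay further below the controls than Obox3 itself.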
